A study of Mus musculus with 13 samples.

Results

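Immediate early genes are genes that cells switch on within minutes of a stimulus, without new protein synthesis. The 10 genes described here, of 8251 named on the array, are Fos, Fosb, Jun, Junb, Egr1, Nr4a1, Ier2, Klf6, Ccn1 and Ccn2, and their members on the array were all probe sets that the platform annotation assigned to one of them. There were 13 such probe sets among 12422, and none of them was shared with another gene. Of the 13, 9 passed the intensity filter, 1 for each gene except Junb, which had none.

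Aortae came from mice of the inbred strain c57/Bl6 (C57BL/6), which spent 2 weeks under 12 h light and 12 h dark cycles before 36 h without light. Tissue was taken every 4 h over 48 h. Each of 12 time points, CT18 to CT62 in hours of circadian time (CT), was 1 pool of 6 mice, measured on a one-colour oligonucleotide array, and CT18 had a duplicate array that was averaged with the first as 1 pool. The labels give no age or sex and name no genotype or treatment that differs between time points. Each of the 6 circadian times was sampled by 2 pools, the second 24 h after the first.

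Fos, Fosb, Jun and Junb encode subunits of the dimeric transcription factor AP-1. Egr1 and Klf6 encode zinc finger transcription factors, Nr4a1 an orphan nuclear receptor and Ier2 a nuclear protein of the same early response. Ccn1 and Ccn2 (formerly Cyr61 and Ctgf) encode secreted matricellular proteins that are early targets of serum response factor and of the mechanically controlled coactivator YAP, and in arteries they are known to respond to stretch and injury.

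Many early response promoters carry the cAMP response element, bound by CREB and ATF factors, whose core is TGACG. Of the 7 members with a RefSeq promoter entry (assembly GRCm38.p6), 5 held TGACG on either strand within 150 bases before the start, against 13.3% of 32851 promoter entries, and 2 (Jun and Klf6) held TGACNTCA, against 5.71%. TGACNTCA overlaps TGACG where N is G. The CArG box, bound by serum response factor, was found in 0 of the 7 windows and in 0.916% of all entries, which says only that the letters are not in these windows. The windows of Fos, Nr4a1 and Ccn1 are shown because Fos and Ccn1 were lowest at CT38, where Nr4a1 was below the floor of measurement. In them TGACG or its reverse complement is in capitals, and all read 5′ to 3′ on the gene's strand.
Fos, chr12:85473740-85473889, plus strand: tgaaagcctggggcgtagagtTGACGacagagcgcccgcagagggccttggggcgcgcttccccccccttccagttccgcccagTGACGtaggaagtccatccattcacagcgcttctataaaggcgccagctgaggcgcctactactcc
Nr4a1, chr15:101266696-101266845, plus strand: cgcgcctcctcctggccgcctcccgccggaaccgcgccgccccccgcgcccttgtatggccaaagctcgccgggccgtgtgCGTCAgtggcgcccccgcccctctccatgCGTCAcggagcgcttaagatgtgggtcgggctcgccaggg
Ccn1, chr3:145649986-145650135, minus strand: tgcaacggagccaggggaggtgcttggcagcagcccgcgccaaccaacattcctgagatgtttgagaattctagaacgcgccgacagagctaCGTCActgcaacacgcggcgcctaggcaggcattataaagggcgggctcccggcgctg

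The deposited intensities were on a linear scale with equal trimmed means on all arrays, and precision is limited by how many arrays there were. The 5th percentile of an array's intensities, a measure of its noise, ran from -152 (CT46) to -69.2 (CT62). Aortic markers were present throughout. The summed intensity of 6 of 9 smooth muscle markers ran from 9968 to 15613 and that of 9 of 10 endothelial markers from 2066 to 3440. Markers of neighbouring tissues varied more, from 8817 to 43337 for 14 of 14 skeletal muscle markers, from 662 to 4563 for 8 of 13 thymocyte markers and from 8382 to 18858 for 8 of 9 markers of the cardiac atrium. The atrial sum was highest at CT42. In pooled tissue, fewer cells of a type and less RNA per cell cannot be told apart.

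Nr4a1 (probe set 102371_at) varied most of the members. Its intensities were 145 and 128 on the CT18 arrays, 343 at CT22, 511 at CT26, 645 at CT30, 810 at CT34, 10.8 at CT38, -55.7 at CT42, 296 at CT46, 328 at CT50, 453 at CT54, 1051 at CT58 and 27.5 at CT62. In both cycles the level was higher at each later sampling from circadian time 22 to circadian time 10 and lay below the floor of measurement (36.7) 4 h afterwards. Over all pools the highest, CT58, was at least 28.6-fold above the lowest. By circadian time, the 2 pools averaged 931 ± 171 at CT10, 549 ± 136 at CT6, 419 ± 130 at CT2 and 319 ± 33.5 at CT22 (SD, n = 2 each), and both pools of CT14 were at the floor. The gap between CT10 and CT6 exceeded the sum of their SDs, and the gaps from CT6 through CT2 to CT22 did not. The SD over pools was 1.78 on the log2 scale, larger than that of 99.9% of the 7453 probe sets kept.

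Ccn2 (93294_at) had a profile of another shape. It measured 1549 and 1076 on the CT18 arrays, 1415 at CT22, 1058 at CT26, 385 at CT30, 728 at CT34, 1392 at CT38, 1446 at CT42, 949 at CT46, 748 at CT50, 560 at CT54, 1105 at CT58 and 1485 at CT62. The lowest circadian time was CT6 in both cycles, and the highest means lay at CT14 to CT22. The 2 pools of circadian time 22 were apart, with 1415 at CT22 and 949 at CT46, the latter below CT26 and CT58. CT14 averaged 1438 ± 66.1, CT18 1379 ± 94.6 and CT22 1182 ± 329, against 472 ± 124 at CT6 (SD, n = 2 each). With the 6 times ordered by level, the gap between CT2 (903 ± 219) and CT6 was the only one between adjacent levels that exceeded the sum of their SDs. The duplicate CT18 arrays differed by -0.53 on the log2 scale (second minus first), where the median absolute difference over all probe sets kept was 0.19.

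Fos (160901_at) ran from 48.3 at CT38 through a median of 183 to 323 at CT46. Both pools of CT22 were high (263 at CT22 and 323 at CT46), and the pools of CT14 were 48.3 at CT38 and 146 at CT62. By circadian time, CT22 averaged 293 ± 42.5 and CT14 97.0 ± 68.7 (SD, n = 2 each), and with the 6 times ordered by level, no adjacent levels were apart by more than the sum of their SDs. A second Fos probe set (161716_at) was at the floor in 7 of 12 pools and was not tested.

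Egr1 (98579_at) ran from 183 at CT38 through a median of 334 to 556 at CT46. It averaged 517 ± 55.7 at CT22, its highest time, and 203 ± 29.2 at CT14, its lowest (SD, n = 2 each). With the circadian times ordered by level, no adjacent levels of Egr1 were apart by more than the sum of their SDs. A second probe set (161802_i_at) was at the floor in all 12 pools. Ier2 (99109_at) ran from 313 at CT42 through 464 to 801 at CT46. Ier2 averaged 635 ± 236 at CT22 and 357 ± 35.6 at CT14, and its CT46 value stood alone, since the next highest pool was CT26 with 530.

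Ccn1 (92777_at) fell into 2 sets of pools. It measured 110 at CT38, 138 at CT42 and 137 at CT62, and from 212 (CT26) to 295 (CT18) in the other 9 pools. Both pools of CT14 were therefore low (123 ± 19.2), while the pools of CT18 were apart from each other (295 at CT18 and 138 at CT42). Nr4a1 was at the floor in the same 3 pools, CT38, CT42 and CT62, and in no other.

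Klf6 (98083_at) varied least. It ran from 323 at CT50 through 427 to 505 at CT38, a 1.56-fold range, with 475 ± 41.9 at CT14 and 325 ± 2.43 at CT2 (SD, n = 2 each). Its SD of 0.22 was larger than that of 27.5% of all probe sets kept. The other 8 members were above the median SD of 0.33 over all probe sets kept, and 2 (Fos and Nr4a1) were above the 90th percentile.

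Among the remaining AP-1 genes, Jun (100130_at) was dim. It measured 131 at CT26 and 121 at CT50, the pools of CT2, and was at the floor in 5 of 12 pools, among them both pools of CT18 and of CT22. The 5 floored pools (CT18, CT22, CT30, CT42 and CT46) had the lowest 5th percentiles of array intensity, from -152 to -104. In every other pool that percentile was -95.3 or above. Whether array noise set the floor values of Jun was not tested. The highest pool of Jun was at least 3.56-fold above the floor. Junb had probe sets 102362_i_at, at the floor in 8 of 12 pools, and 102363_r_at, at the floor in 10, so Junb gave no tested value. On 102362_i_at the highest pools were CT50 with 102 and CT22 with 85.2.

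Fosb (103990_at) ran from 293 at CT62 through 383 to 712 at CT46. Its level moved with the noise of the arrays. Over the 12 pools, Fosb and the 5th percentile of the array had a Pearson r of -0.965 (adjusted permutation p = 0.00054) and a Spearman rho of -0.951 (adjusted permutation p = 0.00108), and r was -0.937 without the 2 pools farthest from the median noise. Of 7453 probe sets, 5 including Fosb had an r this low or lower, and 1.36% were below -0.9. None of the other 8 members passed with this measure (adjusted over 54 relations of 9 genes with 6 measures). The permutations could give no p below 1e-05, and the unadjusted p of Fosb was at that limit.

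**Figure D1:**
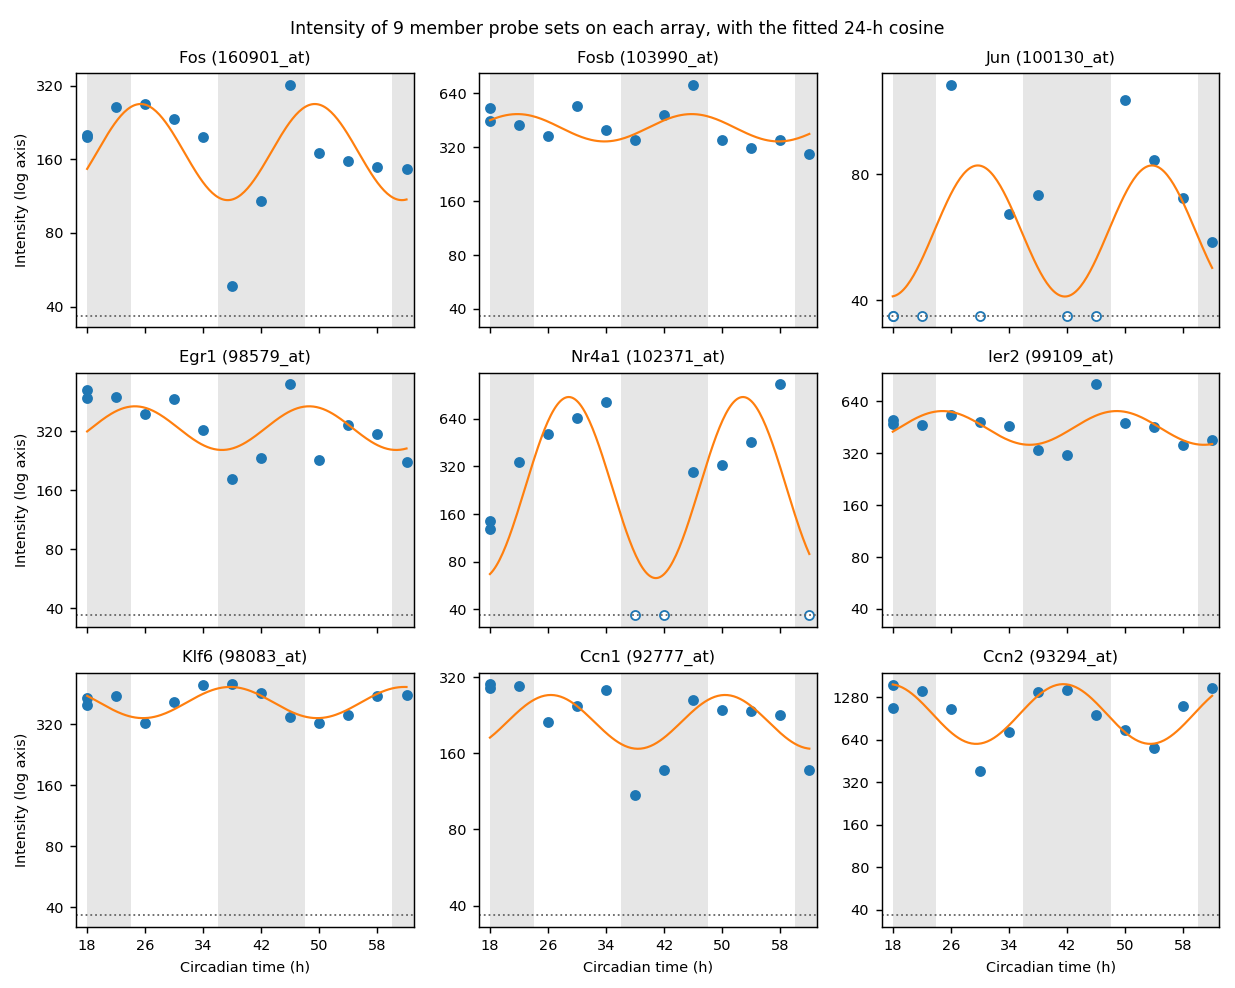
Intensity (log axis) of the 9 member probe sets that passed the filter, against circadian time in hours. Each point is an array, open points are at or below the floor (dotted line, 36.7), curves are fitted 24-h cosines and grey marks subjective night. Nr4a1 lies at the floor at CT38, CT42 and CT62, where Ccn1 is lowest, while Ccn2 is lowest at CT30 and CT54.

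The fit of a 24-h cosine asks whether a gene followed the circadian cycle. None of the 9 members passed over all probe sets (limma, adjusted p below 0.05), where 0.349% of all probe sets passed. At an unadjusted p below 0.05 there were 5 of 9 (Fos, Nr4a1, Ier2, Klf6 and Ccn2), against 9.96% of all probe sets. These members were measured in the same pools and are not independent. The median amplitude, the log2 distance from mean to peak, was 0.37 over the 9 members and 0.18 over all probe sets.

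Ccn2 had the lowest adjusted p (limma, 0.0941), its amplitude being 0.70 ± 0.13 (SE) and its fitted peak CT17.5 ± 0.73 h. Without CT26 its adjusted p was 0.0443. It was 0.342 without CT38 and CT42, 0.311 with arrays centred on medians and 0.483 with tissue markers as covariates. Over all alternatives it ran from 0.0443 to 0.483. For Nr4a1 the amplitude was 1.90 ± 0.42 and the peak CT4.9 ± 0.85 h (adjusted p = 0.166). This fitted peak lay before the highest sampled time of Nr4a1, CT10 in both cycles (810 at CT34 and 1051 at CT58). A cosine is symmetric, whereas the level was at the floor 4 h after CT10. Since 3 pools of Nr4a1 were at the floor, its amplitude moved with the floor, from 1.59 to 2.27 for floors at the 30th and 10th percentiles. Klf6 had 0.26 ± 0.07 and CT13.7 (adjusted p = 0.293).

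Fos peaked at CT1.4 (amplitude 0.65 ± 0.22), Egr1 at CT0.6 (0.37 ± 0.18), Ier2 at CT0.9 (0.33 ± 0.11), Ccn1 at CT2.4 (0.35 ± 0.16) and Jun at CT5.7 (0.52 ± 0.24), with adjusted p from 0.466 to 0.645. Fosb peaked at CT21.8 (0.25 ± 0.13, adjusted p = 0.668). None of these 6 rhythms passed, so the peaks are descriptions. Single pools moved 5 of the 6 amplitudes by 1.5 times or more. Without CT38 the amplitude was 0.40 for Fos and 0.22 for Ccn1, without CT50 it was 0.56 for Egr1, without CT30 0.78 for Jun and without CT46 0.13 for Fosb. With tissue markers as covariates the fitted peak of Fos was CT17.9. The lowest circadian time was CT14 for 6 of the 9 (Fos, Fosb, Egr1, Nr4a1, Ier2 and Ccn1), where 21.4% of all probe sets had their lowest mean, and the highest was CT22 for 5 of them, against 21.5%. Klf6 and Ccn2 were instead highest at CT14. CT46 was the highest pool for 4 members (Fos, Fosb, Egr1 and Ier2), against 16.6% of all probe sets, and CT38 the lowest for 4 (Fos, Egr1, Ccn1 and, tied at its floor with CT42 and CT62, Nr4a1), against 7.53%.

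**Figure D2:**
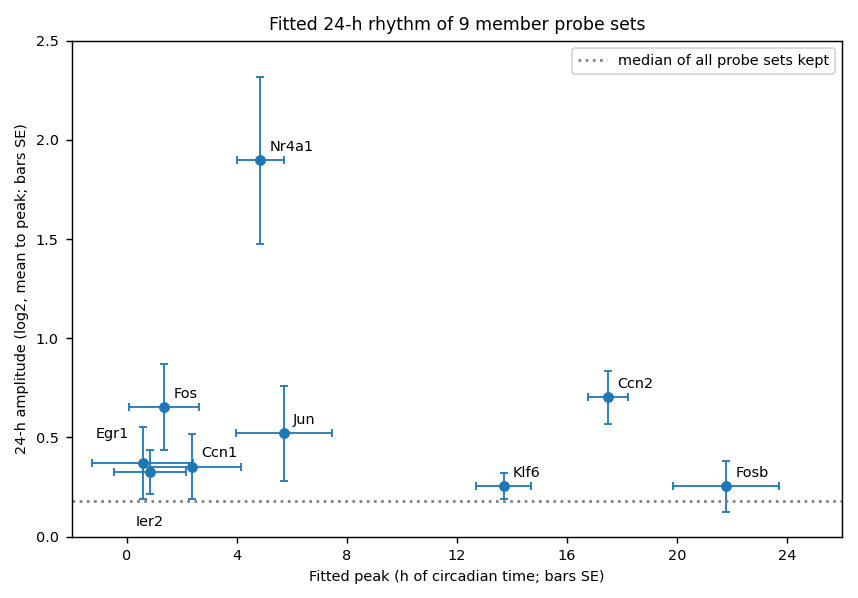
Fitted 24-h amplitude (log2, y axis) against fitted peak (hours of circadian time, x axis) of the 9 members, with SE bars from 12 pools. The dotted line is the median amplitude of all 7453 probe sets, 0.18. Nr4a1 has the largest amplitude, 1.90, and its fitted peak lies before its highest sampled time, CT10. Ccn2 and Klf6 peak at CT17.5 and CT13.7, apart from the members with peaks between CT0.6 and CT5.7.

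The fit of a 12-h component had the 24-h rhythm and the day as covariates. Such a component can come from 2 peaks a cycle or from a single peak of uneven shape, and the fit does not separate these. It gave 0 of 9 past the threshold by limma (adjusted p from 0.789 to 0.923), as for all probe sets (0.0%), and 4 of 9 at an unadjusted p below 0.05 (Jun, Egr1, Nr4a1 and Ccn1), against 5.84% of all. Nr4a1 had a 12-h amplitude of 1.27 ± 0.23 (SE, limma adjusted p = 0.789), while its intensities had a single peak in each cycle (810 at CT34 and 1051 at CT58). Without both CT18 arrays its 12-h adjusted p was 0.0388, and over all alternatives it ran from 0.0388 to 1.

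The second cycle (CT42 to CT62) was set against the first (CT18 to CT38) to see whether levels differed with longer darkness. By limma 0 of 9 members differed, also at an unadjusted p below 0.05, where 7.54% of all probe sets did, and 0.0% of all passed after adjustment. Second minus first day was below 0 for 7 of the 9, against 56.6% of all probe sets, and ran from -0.48 ± 0.61 (SE, log2) for Nr4a1 to 0.15 ± 0.35 for Jun, with a median of -0.11 over the members and -0.03 over all. Egr1 averaged 8.22 on the second day and 8.53 on the first (log2; difference -0.31 ± 0.25, adjusted p = 0.786), with the second-day pool above its partner 24 h earlier in 2 of 6 pairs.

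Whether the members moved together from pool to pool was asked by correlating their log2 levels over the 12 pools. Of 36 pairs of the 9 genes, 6 passed (permutation test of Pearson's r, adjusted over the pairs), all 6 positive and all among Fos, Egr1, Ier2, Ccn1 and Nr4a1. Fos and Egr1 had r = 0.842 (adjusted permutation p = 0.0054) and rho = 0.867 (adjusted permutation p = 0.0119), and r was 0.775 without the 2 pools farthest from the median of Fos. Of the 7452 other probe sets, 0.0939% had an r with Fos at least as high as that of Egr1. For the other pairs that passed, this share, taken with the first gene named, ran from 0.201% (Fos and Ccn1) to 0.725% (Egr1 and Ier2). Fos and Ier2 had r = 0.802 (adjusted permutation p = 0.028) and rho = 0.930 (0.00216), with r = 0.874 without the 2 farthest pools. Egr1 and Ier2 had r = 0.761 (adjusted permutation p = 0.0212) and rho = 0.755 (0.0525), with r = 0.626 without the 2 farthest. Fos and Egr1 passed whichever single pool was left out. Fos and Ier2 did not pass without CT26 (r = 0.792, adjusted permutation p = 0.0532) or CT42 (0.787, 0.07), nor Egr1 and Ier2 without CT38 (0.713, 0.0857) or CT46 (0.716, 0.0783).

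The 3 other pairs involve Ccn1, whose pools lay in 2 sets, so each r was also taken over the 9 pools other than CT38, CT42 and CT62. Over all 12 pools, r was 0.813 for Fos and Ccn1, 0.804 for Egr1 and Ccn1 and 0.787 for Nr4a1 and Ccn1 (adjusted permutation p = 0.0127, 0.0127 and 0.028). The rho of these pairs was 0.685, 0.783 and 0.359 (adjusted permutation p = 0.077, 0.0455 and 0.396), and r without the 2 pools farthest from the first gene's median was 0.682, 0.734 and 0.554. Over the 9 pools, r was 0.22 for Fos and Ccn1, 0.435 for Egr1 and Ccn1 and -0.469 for Nr4a1 and Ccn1, with adjusted permutation p from 0.564 to 0.775. These 9 pools leave out the 3 lowest in Ccn1 itself, which narrows its range and by itself lowers r. None of the 3 relations passed without CT38 alone (r from 0.66 to 0.72), nor that of Nr4a1 without CT42 (0.737) or CT62 (0.736). On the residuals after the 24-h cosine all 3 relations passed (r from 0.738 to 0.858, adjusted permutation p from 0.0212 to 0.0436). Fos and Egr1 also passed on these residuals (r = 0.790, adjusted permutation p = 0.0337). Fos with Ier2 and Egr1 with Ier2 did not (r = 0.653 and adjusted permutation p = 0.0638 for each). The permutations treated the 12 residuals as free values and did not count the fitted terms, so adjusted p on residuals can be too small. Over the same 9 pools, Fos and Ier2 had an r of 0.807 (adjusted permutation p = 0.036), while Fos and Egr1 had 0.746 (0.115) and Egr1 and Ier2 0.568 (0.376).

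**Figure D3:**
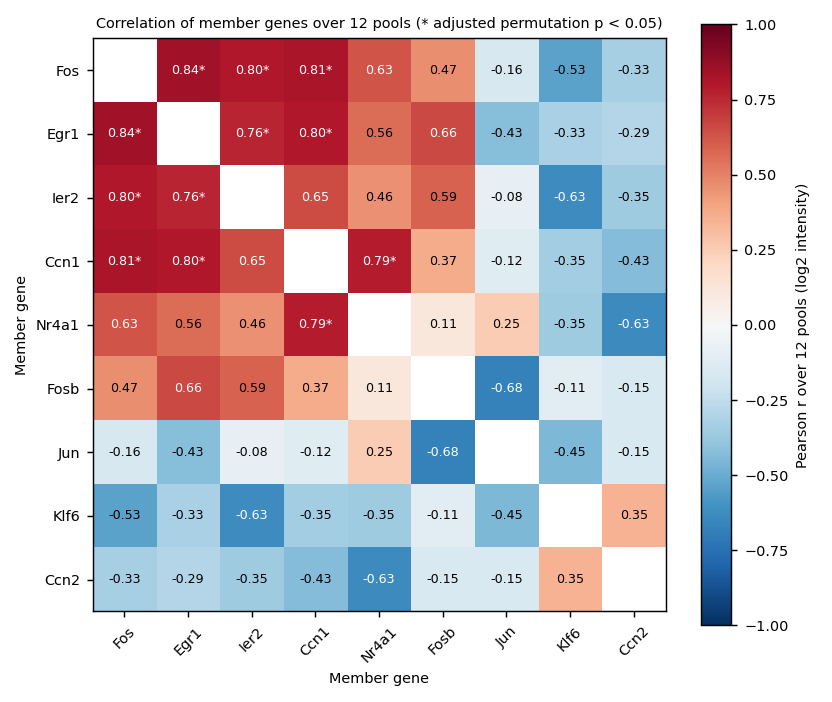
Pearson r of each pair of member genes over 12 pools (log2 intensity), with red for positive and blue for negative values and an asterisk where the adjusted permutation p was below 0.05. The 6 pairs that passed lie among Fos, Egr1, Ier2, Ccn1 and Nr4a1.

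**Figure D4:**
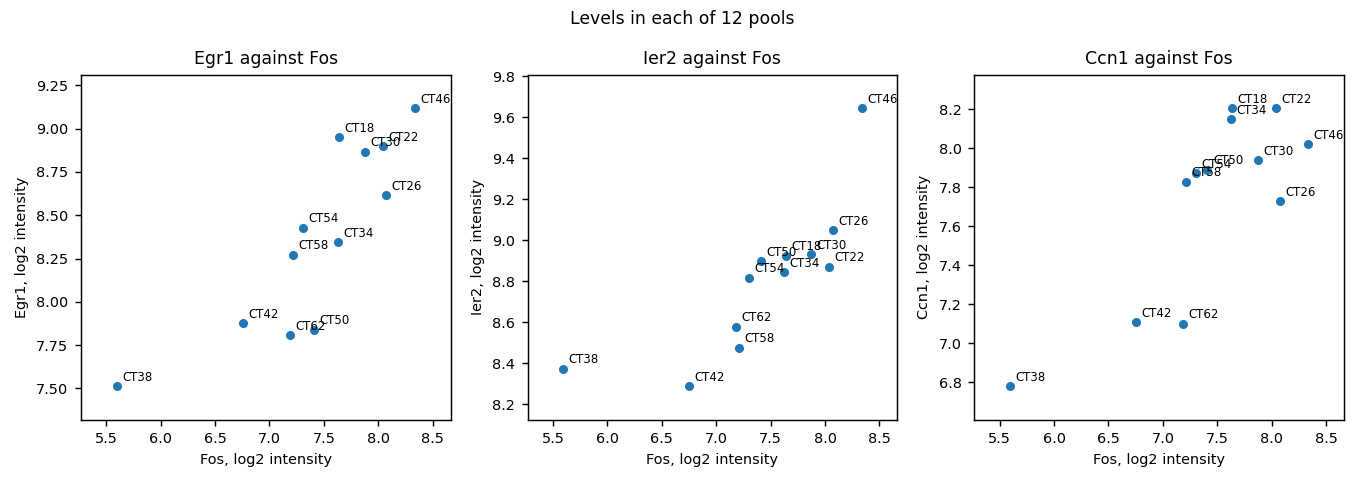
Log2 intensity of Egr1, Ier2 and Ccn1 (y axes) against Fos (x axis), 1 point for each of 12 pools. CT38 is lowest in Fos, and Ccn1 separates CT38, CT42 and CT62 from the other 9 pools.

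Ccn2 did not follow Ccn1. The pair had r = -0.431 (adjusted permutation p = 0.295) and rho = -0.371 (adjusted permutation p = 0.386). Ccn2 and Nr4a1 had r = -0.633 (adjusted permutation p = 0.077). Jun and Fosb, subunits that can pair with members of the other's family, had r = -0.679 (adjusted permutation p = 0.0734). With the 5th percentile of the array, the 2 genes went in opposite directions. Fosb had r = -0.965 and Jun r = 0.697 (adjusted permutation p = 0.00054 and 0.118). Whether array noise set the r of this pair was not tested.

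Markers of the cardiac atrium moved with the same pools. Their mean centred level was 0.90 at CT38 and 1.02 at CT42 (log2), against -0.45 to 0.18 in the other 10 pools. With this level, Fos had r = -0.809 (adjusted permutation p = 0.0419, rho = -0.650, adjusted permutation p = 0.212), and Ier2 r = -0.754 (0.0419, rho = -0.748, 0.102). Of all 7453 probe sets, 0.134% had an r as low as that of Fos or lower, and 0.322% as low as that of Ier2 or lower. Without the 2 pools farthest from the median atrial level, r was -0.481 for Fos and -0.596 for Ier2. Only Fos and Ier2 passed with the atrial markers, but other members had r of similar size. It was -0.768 for Ccn1, -0.703 for Nr4a1, -0.633 for Egr1, 0.632 for Klf6 and 0.618 for Ccn2 (adjusted permutation p from 0.117 to 0.195). For Jun and Fosb r was -0.164 and -0.127. No member passed with the skeletal muscle or thymocyte markers or with the ratios of 3′ to 5′ signal of actin and Gapdh. Without CT38 and CT42, 2 pairs of members passed, Fos with Ier2 and Fosb with Egr1. CT62, low in Ccn1 and at the floor in Nr4a1, had an atrial level of 0.04. With covariates for atrial, thymocyte and skeletal muscle markers, the fitted amplitude of Fos was 0.39 with a peak at CT17.9 (limma adjusted p = 0.656). On the residuals after these markers, Fos and Egr1 was the only 1 of the 6 pairs that passed, and Fos and Ier2 had r = 0.537 (adjusted permutation p = 0.23). As after the cosine, adjusted p on these residuals can be too small.

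**Figure D5:**
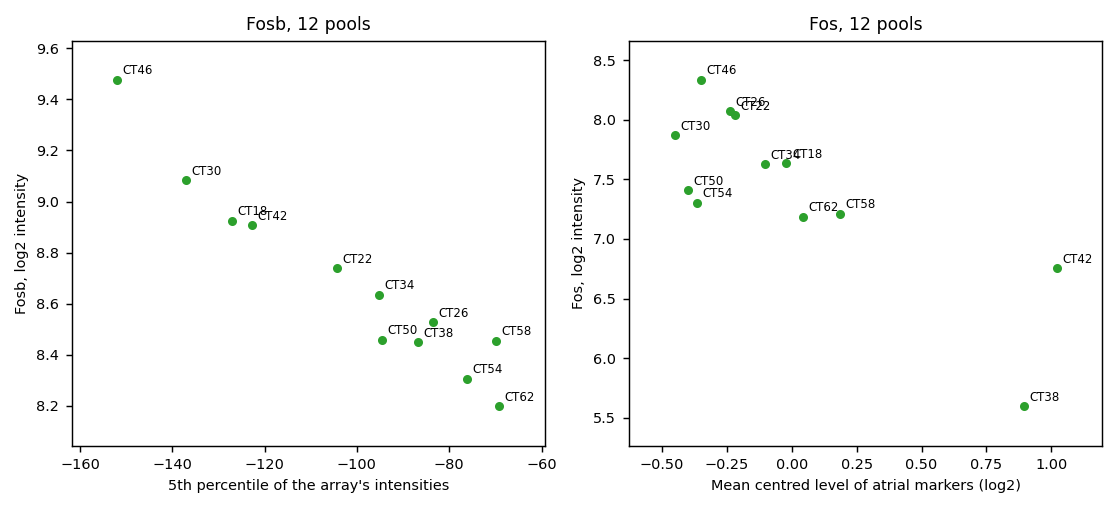
Log2 intensity of Fosb against the 5th percentile of the array's intensities (left) and of Fos against the mean centred level of atrial markers (right), 1 point for each of 12 pools. Fosb is higher on the arrays with the lowest 5th percentile (r = -0.965), and Fos is lowest at CT38 and CT42, the 2 pools highest in atrial markers.

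Genes with profiles most like those of the members were taken over the 12 pools by Pearson's r, as a description. For Fos they were Necap2, a factor of clathrin-coated vesicles (0.869), Ccne1, cyclin E, at the floor in 1 pool (0.867), and Pigt, a subunit of the enzyme that attaches lipid anchors to proteins (0.860). For Nr4a1 they were Faap20 (0.849), Pygb, a glycogen phosphorylase (0.844), and Snapin (0.831). The probe sets of Faap20, of H2-D1 and of Lox, named further on, are marked for cross-hybridisation within a family. Nr4a1 ranged at least 28.6-fold but Pygb only from 252 to 430 and Snapin from 264 to 378, so likeness of shape here was not likeness of size. For Ccn1 they were Necap2 again (0.888), Ctbp1, a transcriptional corepressor (0.870), and H2-D1 (0.868). For Ccn2 they were Lpin1, a phosphatidate phosphatase (0.925), Nfil3, a clock-linked repressor (0.874), and P4ha1, a subunit of the enzyme that hydroxylates collagen (0.860), the last 2 each at the floor in 1 pool.

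Of 55 other immediate early genes listed, 43 were on the array and 35 passed the filter. For a 24-h rhythm 1 of 35 passed (0.349% of all probe sets), and 8 were at an unadjusted p below 0.05, against 9.96% of all. The one that passed was Pim1, a serine/threonine kinase (amplitude 0.35 ± 0.06, peak CT4.9, limma adjusted p = 0.0484), with 1292 at CT30 and 1298 at CT54 against 752 at CT38 and 796 at CT62. Zfp36l1, which promotes decay of messages, had 0.50 ± 0.09 and CT21.4 (adjusted p = 0.0668), and Cebpb, a bZIP factor, had 0.35 ± 0.07 and CT7.5 (adjusted p = 0.118). The list's median amplitude was 0.27, against 0.18 over all probe sets. CT14 was the lowest time for 5 of the 35, against 21.4% of all.

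Of 24 other CCN genes, YAP and MRTF targets and their regulators, 14 passed the filter and 0 passed for a rhythm by limma (0.349% of all probe sets), with 4 at an unadjusted p below 0.05 (9.96% of all). Ankrd1, a muscle ankyrin repeat protein induced by stretch, had the lowest p (amplitude 0.62 ± 0.13, peak CT17.0, adjusted p = 0.115), near the fitted peak of Ccn2. Ankrd1 was highest at CT42 with 494 and lowest at CT30 with 128. These were also the pools with the highest and lowest atrial marker sums (18858 and 8382). Whether atrial tissue set its profile or its nearness to Ccn2 was not tested. Yap1 itself had 0.29 ± 0.08 and CT20.1 (adjusted p = 0.322) and Lox, which crosslinks collagen and elastin, 0.53 ± 0.17 and CT22.1 (adjusted p = 0.427). Of 22 upstream kinases and transcription factors, 12 passed the filter and 0 passed for a rhythm by limma (0.349% of all), with 1 at an unadjusted p below 0.05 (9.96% of all), Atf2 (0.30 ± 0.08, CT9.0, adjusted p = 0.322). In these 3 lists 0 genes passed for the day or for a 12-h component by limma, as for all probe sets (0.0%). At an unadjusted p below 0.05 in the day test (7.54% of all probe sets), 3 of the 35 immediate early genes were lower and 0 higher on the second day, with 0 of 14 and 0 of 12 in either direction in the other lists. For the 12-h component at an unadjusted p below 0.05 (5.84% of all) there were 6 of the 35 immediate early genes, 1 of the 14 CCN and mechanical genes and 0 of the 12 upstream genes.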

How the data were processed

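Aortic RNA of pooled mice was measured on 13 arrays. The authors deposited intensities on a linear scale, 1 per probe set and array. The sources used here do not state the software or scaling behind them. All arrays had the same mean, 200.2, once the top and bottom 2% of probe sets were dropped, and values were used as deposited. Between 21.3% and 24.2% of intensities were at or below 0.

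Of 12488 probe sets, 66 controls were left out. The platform annotation gave 1 gene for 10833, several for 396 and did not list 1193, and 10817 of the 10833 matched RefSeq (GRCm38.p6) by gene identifier, with 0 symbols changed. Intensities were floored at 36.7 (20th percentile of positive values) and log2 was taken. CT18 arrays were averaged as 1 pool, since the labels do not say whether they share a pool. Probe sets with a mean at or above the 40th percentile were kept (7453). Folds against the floor are given as "at least".

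Cosine fits, day and 12-h terms used limma 3.58.1 in R 4.3.3 (eBayes with trend, 9, 8 and 6 residual degrees of freedom), adjusted by Benjamini-Hochberg over all 7453. With 1 pool a time point, a p-value reflects how far pools scatter about the fitted curve. On simulated data, 45% of rhythms of amplitude 0.5 and 79% of amplitude 1 were recovered, with 8 false calls. The same test recovered 63% of day differences and 76% of 12-h components of size 1. Correlations used 100000 two-sided permutations of pools (SciPy 1.17.1), adjusted over 36 pairs or 54 relations. In member pairs, values in brackets after a first adjusted p are also adjusted permutation p.

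Named genes were all member probe sets, the 3 lowest rhythm p and any call of each other list, and the 3 genes most like Fos, Nr4a1, Ccn1 and Ccn2. Members and lists were chosen with earlier results of these data known. Alternatives were the floor, the filter, quantile and median scaling, the variance trend, tissue covariates, residuals, the scale and statistic, and leaving out pools. No 2 probe sets of a member gene passed the filter, so their planned comparison was not made.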

Additional observations from a re-analysis of the deposited data

How the results depend on the processing

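The counts of members past the threshold in the 3 fits had the same value under every alternative run except those named here. For a 24-h rhythm the count was 0, and leaving out 1 time point or CT18 array gave 0 to 1, the 1 being Ccn2 without CT26. For a 12-h component the count was 0, and leaving out 1 gave 0 to 1, the 1 being Nr4a1 without both CT18 arrays. For the day it was 0 throughout. The count of correlated pairs was 6 and ran from 2 (without CT38) to 9 (without CT58) when 1 was left out. It was 7 and 5 with the floor at the 10th and the 30th percentile, 7 with arrays centred on medians, 7 on linear intensities, 3 with Spearman's rho, 2 without CT38 and CT42, and 1, Fos with Ier2, without CT38, CT42 and CT62; the last 2 settings were chosen after seeing the data. On the residuals after tissue markers 5 pairs passed, of which 1, Fos with Egr1, was among the 6, and after the 24-h cosine 9 passed, 4 of them among the 6. The 2 counts on residuals can be too high, since the permutations did not count the fitted terms.

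With tissue markers as covariates the fitted peak of Fos moved to CT17.9 (amplitude 0.39, adjusted p = 0.656), against CT1.4 without covariates, and without CT38, CT42 and CT62 the r of Nr4a1 and Ccn1 was -0.469. The causes were not tested. Fos and Egr1 passed in 24 of 26 alternatives (r from 0.746 to 0.887), Fos and Ier2 in 22, Egr1 and Ccn1 in 22, Fos and Ccn1 in 21, Egr1 and Ier2 in 19 and Nr4a1 and Ccn1 in 17. Over all probe sets 26 passed for a rhythm, and 4 to 40 over the alternatives. Dim probe sets of Junb, Jun and Egr1 near the floor set what could be tested.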

Other observations

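Mapk9, a stress-activated kinase (JNK2) that phosphorylates Jun, measured 587 at CT18 and from 166 to 270 in the other 11 pools. The CT18 pool differed from CT42, its partner 24 h later (255), and no rhythm passed (amplitude 0.36 ± 0.16, limma adjusted p = 0.619).

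Mapkapk2, a kinase that stabilises short-lived messages, ran from 787 at CT46 to 1320 at CT58 (amplitude 0.16 ± 0.06, peak CT8.5, limma adjusted p = 0.579). CT46 was the highest pool of Fos, Fosb, Egr1 and Ier2, and its array had the lowest 5th percentile of intensities (-152). Whether Mapkapk2 was related to these genes was not tested.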
